A study of Rattus norvegicus with 16 samples.

Results

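The genes described here are those of a signalling route that skeletal muscle uses when it loses its nerve: the class IIa histone deacetylases Hdac4, Hdac5 and Hdac9, the repressor Dach2, the MEF2 transcription factors Mef2a, Mef2c and Mef2d, and the stress genes Gadd45a and Cdkn1a. They were chosen by symbol from a table of 17147 genes. Of the 9 symbols, 7 were matched to a gene in it, and all 7 passed the filter on low counts that left 11658 genes to test. Dach2 and Mef2c are not analysed here.

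Transcripts were measured by sequencing of polyA-selected RNA from the supraspinatus, a shoulder muscle of the rotator cuff, of Sprague Dawley rats. The 16 libraries form 4 groups of 4. The 0-day group came from unoperated rats, and the groups at 10, 30 and 60 days came from rats whose supraspinatus had been torn through its full thickness on both sides and denervated by cutting out part of the suprascapular nerve. No group had the tear or the neurectomy alone, and no group had a sham operation, so tear, nerve loss and surgery cannot be told apart. The labels used here give neither the age nor the sex of the rats, and do not say whether any libraries came from the same rat, so the p-values measure the spread between these libraries. The library totals ran from 17.2 to 39.9 M fragments (M, mega), and all 4 totals at 60 days (17.2 to 22.4 M) were lower than those of the other groups. Muscle fibre markers (Acta1, Ckm, Tnnt3, Tnni2, Mylpf, Des and Pvalb) summed to 156802 to 172240 CPM (counts per 1 M fragments, scaled between libraries by TMM factors) at 0 days. They summed to 40360 to 45502 CPM at 10 days, 74612 to 118219 at 30 and 108759 to 122512 at 60 days. In whole muscle, fewer cells of a type and less RNA per cell cannot be told apart.

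Class IIa histone deacetylases carry signals between the cytoplasm and the nucleus. In an innervated fibre, calcium-activated kinases phosphorylate them and hold them outside the nucleus, whereas in a denervated fibre they enter the nucleus, bind MEF2 factors and repress MEF2 target genes. HDAC4 is the member known to be induced by denervation. It represses Dach2, itself a repressor of the myogenin gene, and myogenin in turn activates the acetylcholine receptor genes and the ubiquitin ligases Fbxo32 and Trim63. Gadd45a, a small nuclear protein, is a known denervation-induced gene downstream of HDAC4 and of the stress transcription factor ATF4. It is known to raise Cdkn1a, which encodes the cyclin-dependent kinase inhibitor p21.

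At 10 days, 4 of the 7 genes (Hdac4, Mef2a, Gadd45a and Cdkn1a) rose against 0 days and 2 (Hdac5 and Hdac9) fell, at an adjusted p under 0.05 in edgeR's quasi-likelihood test. Over all tested genes, 33.3% rose and 29.4% fell at 10 days. At 30 days Hdac4, Gadd45a and Cdkn1a rose and Hdac5, Hdac9 and Mef2d fell, against 33.7% of all genes called higher and 30.9% called lower. At 60 days Hdac5, Gadd45a and Cdkn1a rose and Hdac9, Mef2a and Mef2d fell, against 29.9% called higher and 29.1% called lower. In the joint test of the 4 groups all 7 genes were called, but so were 84.7% of the genes tested. Since most tested genes were called, a call alone does not set a member apart. By size of the rise, of the 11658 genes, 56 rose more than Gadd45a at 10 days, 61 rose more than Cdkn1a and 229 rose more than Hdac4.

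The scaling of the libraries bears on every small change. With scaling to library totals in place of TMM factors, the median over all genes, on the log2 scale, moved from 0.06 to 0.72 at 10 days, from 0.05 to 0.54 at 30 and from 0.04 to 0.45 at 60 days. The share of called genes that were higher moved with it, from 53.1% to 87.4% at 10 days, from 52.2% to 84.1% at 30 and from 50.7% to 82.7% at 60 days. Fold changes below are relative to TMM scaling, and a sentence says where library totals turn a direction. Ratios of 2 genes within a library do not depend on the scaling and are given for 3 pairs.

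**Figure D1:**
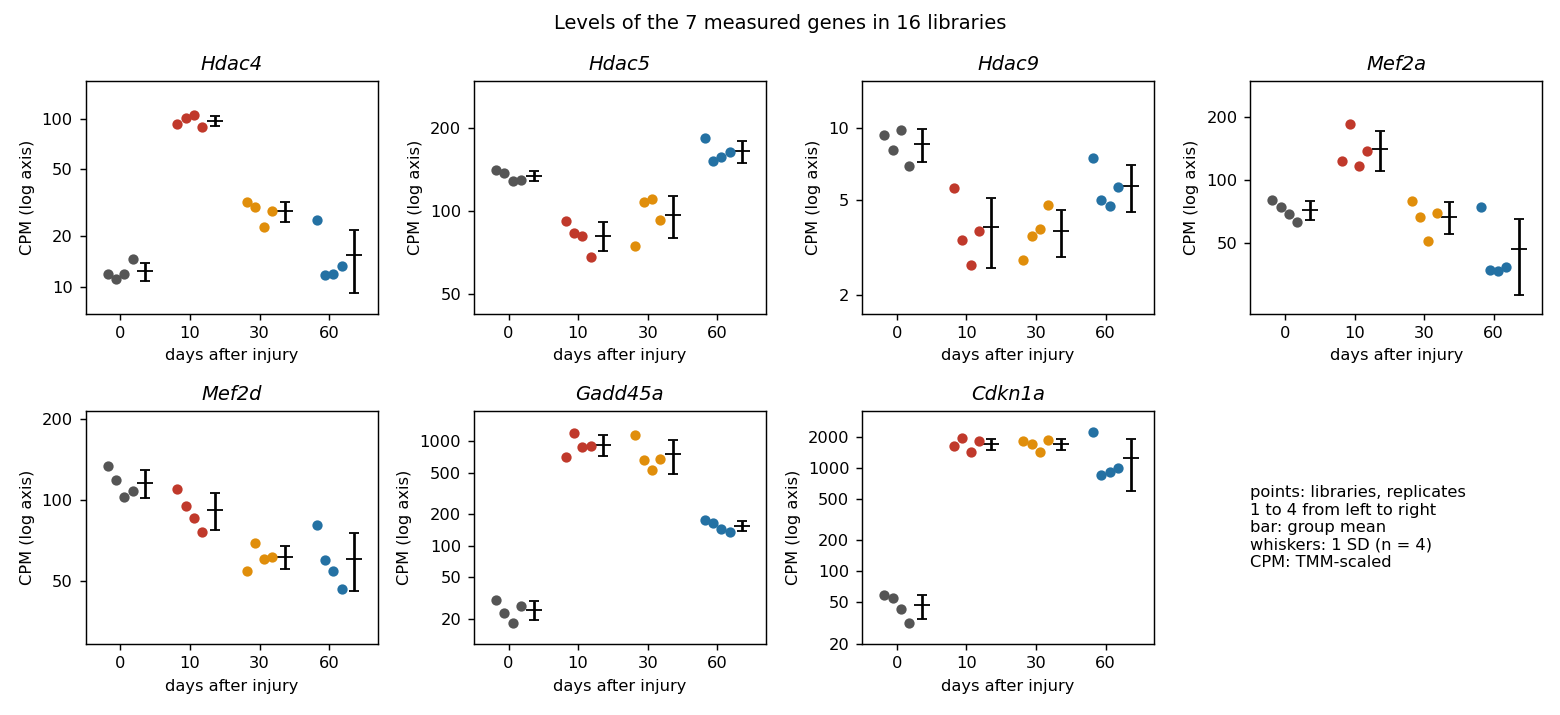
Levels of the 7 measured genes in each library, in TMM-scaled CPM on a log axis, by days after injury. Points are libraries, and the bar and whiskers are the group mean and 1 SD (n = 4); Gadd45a and Cdkn1a lie far above their 0-day levels at all 3 times, Hdac4 peaks at 10 days, and at 60 days replicate 1 lies apart for Hdac4, Mef2a and Cdkn1a.

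Hdac4, the deacetylase that links denervation to MEF2, showed a sharp and passing rise. Its 0-day libraries held 11.8, 11.0, 11.9 and 14.6 CPM (replicates 1 to 4). At 10 days they held 93.6, 101, 105 and 89.9 CPM, at 30 days 31.8, 29.8, 22.8 and 28.3 CPM, and at 60 days 24.8, 11.8, 11.9 and 13.3 CPM. Every 10-day library was above every library of the other groups, and every 30-day library was above every 0-day library. At 60 days 3 of the 4 libraries were within the 0-day range and replicate 1 was above it.

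The rise of Hdac4 had a log2 fold change of 2.98 (SE 0.20, adjusted p 5.11e-09) at 10 days and 1.19 (SE 0.19, adjusted p 6.36e-05) at 30 days. At 60 days the log2 fold change was 0.33 (SE 0.20) and did not pass the test (adjusted p 0.159). Without replicate 1 of that group it was 0.00044 (adjusted p 0.997). With library totals it was 0.73 and passed (adjusted p 0.00390), as it did with upper-quartile factors at 0.46 (adjusted p 0.0436). Between operated groups Hdac4 fell by 1.79 on the log2 scale from 10 to 30 days (adjusted p 2.63e-06) and by 0.86 from 30 to 60 days (adjusted p 0.00484).

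Hdac5, the class IIa deacetylase known as a target of exercise and calcium signals, was lower at 10 and 30 days and higher at 60 days. Its levels were 140.4, 137, 128 and 129.7 CPM at 0 days and 92.0, 83.6, 81.5 and 68.1 CPM at 10 days. At 30 days they were 74.7, 108, 111 and 92.7 CPM, and at 60 days 184, 151, 157 and 164 CPM. All 10-day and 30-day libraries were below all 0-day libraries, and all 60-day libraries were above them. Hdac5 fell by 0.72 on the log2 scale at 10 days (SE 0.11, adjusted p 3.58e-05) and by 0.47 at 30 days (SE 0.11, adjusted p 0.00171). At 60 days it rose by 0.29 (SE 0.11, adjusted p 0.0331), and without replicate 1 of that group the value was 0.23 (adjusted p 0.0926). The 60-day call was also lost without replicate 3 (adjusted p 0.0626) or replicate 4 (adjusted p 0.0578) at 0 days, and with no filter for low counts (0.27, adjusted p 0.0503). With library totals the difference at 10 days was -0.06 and no longer passed, and that at 30 days changed sign to 0.02. The increase from 10 to 60 days, 1.01 on the log2 scale (adjusted p 1.34e-06), did not turn under any scaling tried.

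Hdac9, whose gene also makes a MEF2-binding form without the deacetylase domain, was a low transcript here, with 79 to 221 fragments per library. It ranged from 6.95 to 9.86 CPM at 0 days, from 2.67 to 5.60 at 10 days, from 2.80 to 4.78 at 30 and from 4.73 to 7.52 at 60 days. The 10-day and 30-day libraries did not overlap the 0-day libraries, whereas the 60-day libraries did. Hdac9 fell by 1.15 on the log2 scale at 10 days (SE 0.22, adjusted p 0.000217), by 1.21 at 30 days (SE 0.22, adjusted p 0.000158) and by 0.58 at 60 days (SE 0.22, adjusted p 0.0314). The 60-day call was lost with library totals (-0.17) and with upper-quartile factors (-0.44). It was also lost, at values from -0.55 to -0.49, without replicate 1 or 3 at 0 days or without replicate 2, 3 or 4 at 60 days. Gene-level counts do not separate the 2 forms.

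The levels of Hdac4 and Hdac5 changed against each other within libraries. The ratio of Hdac4 to Hdac5 fragments ran from 0.0807 to 0.113 at 0 days, from 1.02 to 1.32 at 10 days, from 0.206 to 0.426 at 30 and from 0.0760 to 0.135 at 60 days. Its mean log2 value was -3.44 ± 0.21 (SD, n = 4) at 0 days, 0.27 ± 0.17 at 10 days, -1.77 ± 0.43 at 30 and -3.48 ± 0.39 at 60 days. The ratio is one of fragments and is not corrected for the lengths of the 2 transcripts, so its change between groups can be read and its absolute size cannot. The 60-day values straddle those at 0 days, although Hdac5 itself was higher at 60 days.

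The bases just before the start of these genes were searched because the route turns on transcription factors that bind near promoters. The 250 bases before each start came from RefSeq's rat assembly GRCr8, which is not the build the fragments were counted on, so the windows are used for sequence alone. Of the 9 genes, 8 had a window. Motifs were sought on both strands: the MEF2 motif, the E-box CANNTG that myogenin and other factors bind, the AP-1 motif TGANTCA, the cyclic AMP element TGACGTCA, the ATF4 composite TGATGNAA, the MEF3 motif TCAGGTT, and the p53 half-site. Among all 33469 windows in the reference table, 2.96% held a MEF2 motif, 65.5% an E-box, 6.34% an AP-1 motif, 1.59% a cyclic AMP element, 3.4% an ATF4 composite, 3.3% a MEF3 motif and 6.64% a p53 half-site. Hdac4 is shown because it rose most among the deacetylases, with its E-box in capitals, 139 to 144 bases before the start (chr9:100197638-100197887, minus strand). Hdac5 is shown because it holds a MEF2 motif, in capitals, 43 to 52 bases before the start (chr10:87688055-87688304, minus strand), beside E-boxes at 116 to 121 and 24 to 29 bases.
Hdac4: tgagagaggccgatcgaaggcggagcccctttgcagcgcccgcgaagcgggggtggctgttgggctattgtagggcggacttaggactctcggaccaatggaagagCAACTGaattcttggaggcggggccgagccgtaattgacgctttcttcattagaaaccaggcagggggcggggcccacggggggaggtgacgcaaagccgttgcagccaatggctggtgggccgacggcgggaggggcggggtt
Hdac5: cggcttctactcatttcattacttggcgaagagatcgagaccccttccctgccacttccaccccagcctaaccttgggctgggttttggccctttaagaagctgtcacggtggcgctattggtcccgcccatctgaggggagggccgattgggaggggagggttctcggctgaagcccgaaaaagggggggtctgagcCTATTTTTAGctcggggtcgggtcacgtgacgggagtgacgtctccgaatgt
No MEF2 motif was matched in the Hdac4 window, and no 2 matches printed here overlap. A match is a run of letters and not a measured binding site.

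The MEF2 factors drive muscle and energy genes and are the partners that class IIa deacetylases repress. With TMM factors Mef2a rose at 10 days and Mef2d did not, and both were lower at 60 days. Mef2a was at 80.4, 74.1, 68.8 and 62.9 CPM at 0 days and at 124, 186, 117 and 137 CPM at 10 days. It was at 79.1, 66.6, 51.2 and 69.7 CPM at 30 and at 74.0, 37.3, 36.8 and 38.3 CPM at 60 days. All 10-day libraries were above all others, the 30-day libraries overlapped those at 0 days, and at 60 days 3 libraries were below every 0-day library while replicate 1 was inside their range. Mef2a rose by 0.98 on the log2 scale at 10 days (SE 0.21, adjusted p 0.000858). At 30 days its log2 difference of -0.10 did not pass (adjusted p 0.690), and library totals turned it to 0.40. At 60 days Mef2a fell by 0.62 (SE 0.21, adjusted p 0.0220). Without replicate 1 of that group the value was -0.93 (adjusted p 0.000142). Without replicate 1 at 0 days (-0.54) or replicate 2, 3 or 4 at 60 days (-0.53 to -0.51) it did not pass, and with library totals it was -0.22 and did not pass.

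Mef2d, the other MEF2 gene measured, ranged from 103 to 134 CPM at 0 days, from 76.4 to 109.9 at 10 days, from 54.5 to 69.5 at 30 and from 46.9 to 81.2 at 60 days. Its 30-day and 60-day libraries were all below its 0-day libraries, whereas the 10-day libraries overlapped them. Mef2d fell by 0.91 on the log2 scale at 30 days (SE 0.15, adjusted p 5.91e-05) and by 0.93 at 60 days (SE 0.15, adjusted p 6.70e-05). At 10 days the difference of -0.33 did not pass (SE 0.15, adjusted p 0.0587), and with library totals it was 0.32 and passed in the opposite direction (adjusted p 0.0355). The fall passed with RLE factors (-0.37, adjusted p 0.0416), with DESeq2 (-0.37, adjusted p 0.0344) and with the 2 groups alone (-0.36, adjusted p 0.0221). With TMM factors it also passed without replicate 3 at 0 days (-0.38, adjusted p 0.0486) or replicate 1 at 10 days (-0.43, adjusted p 0.0238). The ratio of Mef2a to Mef2d fragments within a library ran from 0.581 to 0.670 at 0 days and from 1.13 to 1.94 at 10 days. It ran from 0.848 to 1.45 at 30 and from 0.621 to 0.911 at 60 days. Every 10-day and 30-day library had a higher ratio than every 0-day library, which puts the balance nearer to Mef2a at both times.

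The Mef2a window is shown because it also holds a MEF2 motif, in capitals, 31 to 40 bases before the start (chr1:130392163-130392412, minus strand), so that 2 of the 8 genes with a window had this motif. The Mef2d window held none of the 7 motifs.
Mef2a: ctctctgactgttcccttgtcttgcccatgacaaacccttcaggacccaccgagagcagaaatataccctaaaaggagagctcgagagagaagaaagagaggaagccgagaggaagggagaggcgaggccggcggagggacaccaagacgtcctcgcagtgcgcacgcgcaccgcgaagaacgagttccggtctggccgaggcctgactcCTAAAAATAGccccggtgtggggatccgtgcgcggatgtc

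**Figure D2:**
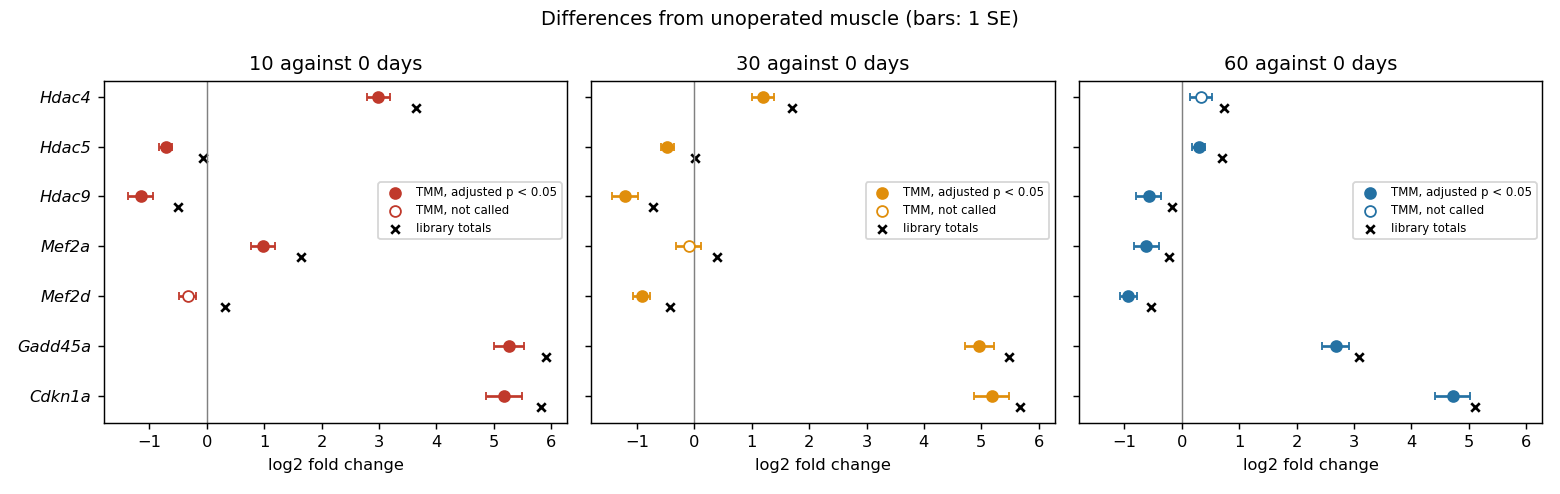
Log2 fold changes of the 7 genes at 10, 30 and 60 days against 0 days, with 1 SE. Filled circles passed an adjusted p under 0.05 with TMM factors, open circles did not, and crosses are the values with library totals; all crosses lie to the right of their circles, and Gadd45a and Cdkn1a are at 2.68 or more in every panel.

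Gadd45a, a stress-induced nuclear protein, rose in every operated library. It was at 30.0, 22.4, 18.4 and 26.4 CPM at 0 days and at 711, 1219, 895 and 901 CPM at 10 days. At 30 days it was at 1149, 667, 534 and 687 CPM, and at 60 days at 176, 165, 144 and 137 CPM. No library of an operated group overlapped the 0-day libraries, and all 60-day libraries were below all 10-day and 30-day libraries. The log2 fold change was 5.26 (SE 0.26, adjusted p 3.25e-10) at 10 days, 4.97 (SE 0.25, adjusted p 6.41e-10) at 30 and 2.68 (SE 0.23, adjusted p 1.67e-07) at 60 days. From 10 to 30 days the difference of -0.29 did not pass (adjusted p 0.267), and without replicate 1 at 30 days, the highest of its group, it was -0.57 and passed (adjusted p 0.0167). From 30 to 60 days Gadd45a fell by 2.29 on the log2 scale (adjusted p 7.82e-06).

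Cdkn1a, the gene of the cell cycle inhibitor p21, rose about as far and stayed up. Its 0-day libraries held 58.4, 54.7, 42.7 and 31.9 CPM. It was at 1636, 1921, 1412 and 1809 CPM at 10 days, at 1819, 1679, 1421 and 1873 CPM at 30 days, and at 2199, 852, 914 and 987 CPM at 60 days. No operated library overlapped the 0-day libraries, and at 60 days replicate 1 was the highest of all 16 libraries while the other 3 were below every 10-day and 30-day library. The log2 fold change was 5.18 (SE 0.31, adjusted p 2.36e-09) at 10 days, 5.18 (SE 0.31, adjusted p 3.01e-09) at 30 and 4.72 (SE 0.31, adjusted p 1.50e-08) at 60 days. At 60 days 18 genes rose more than Cdkn1a, against 104 that rose more than Gadd45a. With TMM factors and all libraries the differences of Cdkn1a between operated groups did not pass, whereas with library totals Cdkn1a fell by 0.72 from 10 to 60 days (adjusted p 0.0225). Without replicate 1 at 60 days Cdkn1a fell by 0.89 from 30 to 60 days (adjusted p 0.00136) and by 0.89 from 10 to 60 days (adjusted p 0.000283).

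The balance of Gadd45a and Cdkn1a within libraries was similar in range at 0, 10 and 30 days and lower at 60 days. The ratio of Gadd45a to Cdkn1a fragments ran from 0.411 to 0.830 at 0 days, from 0.434 to 0.635 at 10 days and from 0.367 to 0.632 at 30 days. At 60 days it ran from 0.0799 to 0.193, below every library of the other groups, and replicate 1 had the lowest value. The mean log2 ratio was -0.93 ± 0.46 (SD, n = 4), -0.88 ± 0.27, -1.21 ± 0.37 and -2.88 ± 0.54 at 0, 10, 30 and 60 days.

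**Figure D3:**
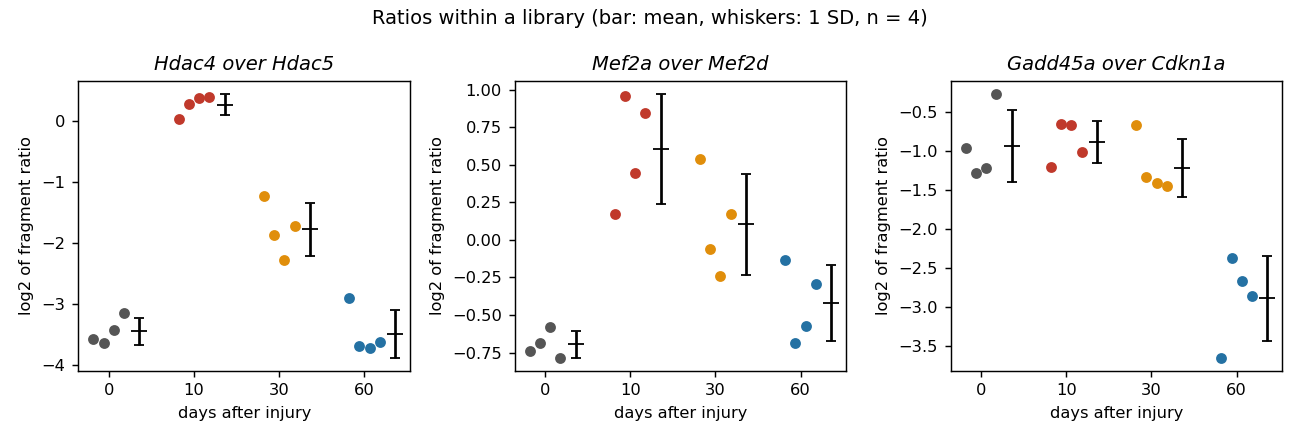
Log2 ratios of fragments within each library for Hdac4 over Hdac5, Mef2a over Mef2d and Gadd45a over Cdkn1a, by days after injury, with the group mean and 1 SD (n = 4). The first ratio peaks at 10 days at 0.27, the second is highest at 10 days, and the third drops to -2.88 at 60 days.

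Both windows held a p53 half-site, which is why they are shown, since p53 is a known activator of both genes. In Gadd45a it lay 39 to 48 bases before the start (chr4:97486800-97487049, minus strand), and in Cdkn1a 192 to 201 bases before the start (chr20:7150682-7150931, plus strand), where an E-box lay at 93 to 98 bases. Capitals mark these matches. No ATF4 composite was matched in either window.
Gadd45a: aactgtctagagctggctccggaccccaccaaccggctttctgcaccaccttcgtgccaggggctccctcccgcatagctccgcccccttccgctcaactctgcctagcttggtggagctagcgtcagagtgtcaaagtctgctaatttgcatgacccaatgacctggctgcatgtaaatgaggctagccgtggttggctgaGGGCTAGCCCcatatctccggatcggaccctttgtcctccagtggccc
Cdkn1a: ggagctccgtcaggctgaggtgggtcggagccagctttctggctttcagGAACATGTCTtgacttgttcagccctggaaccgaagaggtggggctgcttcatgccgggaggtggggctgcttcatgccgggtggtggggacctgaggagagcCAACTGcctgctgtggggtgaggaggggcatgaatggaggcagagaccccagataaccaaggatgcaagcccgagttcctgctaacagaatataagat

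Between the operated groups, 4 members ended below their 10-day level and 2 above it. From 10 to 30 days 0 members rose and 3 fell (Hdac4, Mef2a and Mef2d), against 23.0% of all genes higher and 24.3% lower. Mef2a fell by 1.08 on the log2 scale (adjusted p 0.000671) and Mef2d by 0.58 (adjusted p 0.00421) in that interval. Without replicate 1 at 30 days the count was 5, since Gadd45a fell and Hdac5 rose by 0.35 (adjusted p 0.00808). Over all genes, 5272 were called in that fit, against 5513 with all libraries. Hdac5 also passed from 10 to 30 days without replicate 1 at 10 days (0.31, adjusted p 0.0436) and with upper-quartile factors (0.32, adjusted p 0.0252). From 30 to 60 days Hdac5 rose by 0.76 (adjusted p 0.000246) and Hdac4 and Gadd45a fell, against 10.3% of all genes higher and 12.4% lower. Without replicate 1 at 60 days the count was 5, with Mef2a (-0.83, adjusted p 0.00156) and Cdkn1a lower as well. Calls over all genes also increased in that fit, to 3381 from 2636 with all libraries. With library totals Mef2a passed from 30 to 60 days with all libraries (-0.62, adjusted p 0.0445). From 10 to 60 days Hdac5 and Hdac9 rose and Hdac4, Mef2a, Mef2d and Gadd45a fell, against 29.1% higher and 31.9% lower. The Hdac9 rise, 0.57 on the log2 scale (adjusted p 0.0328), did not pass without replicate 1 at 60 days (0.41, adjusted p 0.123) or without replicate 2, 3 or 4 at 10 days (0.43 to 0.56). With library totals it was 0.32 (adjusted p 0.201) and with the 2 groups alone 0.58 (adjusted p 0.0623). From 30 to 60 days the Hdac9 difference of 0.63 did not pass (adjusted p 0.0508), and it passed without replicate 4 at 30 days (0.77, adjusted p 0.0360), with RLE factors (0.65), upper-quartile factors (0.65), DESeq2 (0.65) and a filter at a mean of 1 CPM (0.64), and with the title letter as a covariate (0.77).

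**Figure D4:**
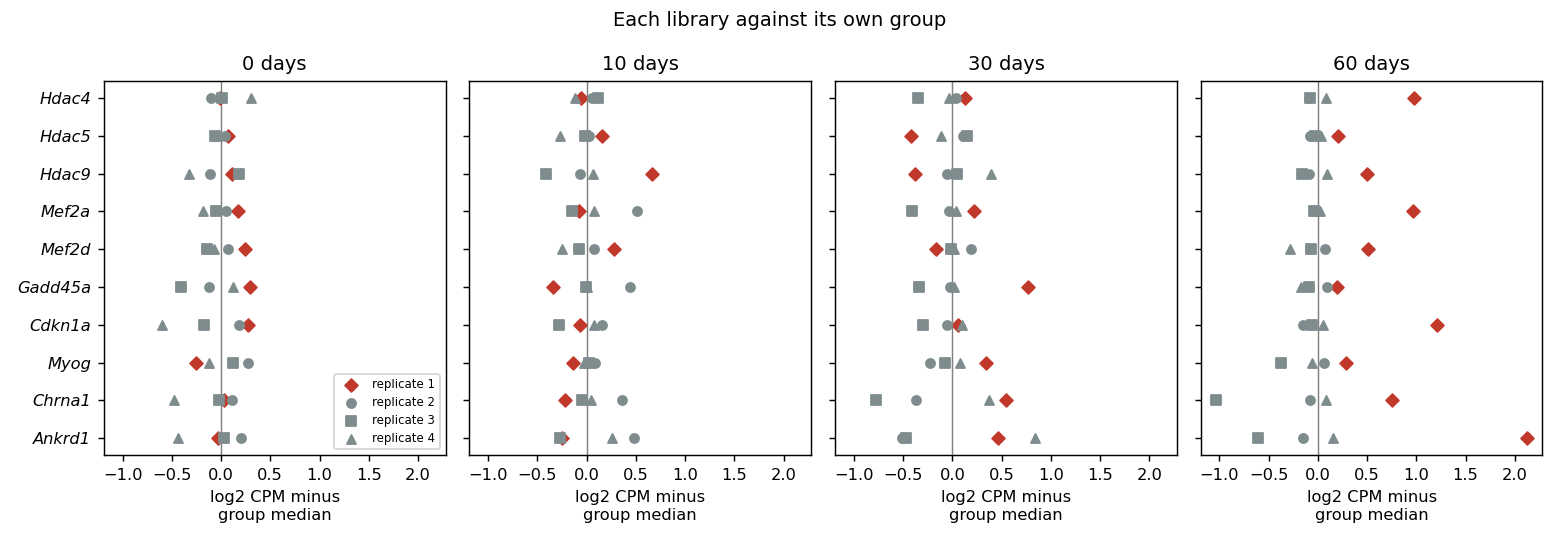
Each library's log2 CPM minus the median of its own group, for the 7 members and for Myog, Chrna1 and Ankrd1, in 4 panels by time. Red diamonds are replicate 1. At 60 days it is the highest library for every member and lies farthest to the right for Hdac4, Mef2a, Cdkn1a and Ankrd1. At 30 days it is the highest library for Gadd45a.

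Replicate 1 at 60 days was the highest library of its group for every member, and so raised every member's mean there. Its ratio to the mean of the other libraries was 1.51 for Mef2d, 1.47 for Hdac9, 1.18 for Gadd45a and 1.17 for Hdac5. It was 2.01 for Hdac4, 1.98 for Mef2a and 2.40 for Cdkn1a. This library was also above its group in some other transcripts, and not in all that rose after injury. Ankrd1, a stretch- and injury-induced repeat protein of the sarcomere, was at 3624 CPM there and at 545 to 927 CPM in the other 3 libraries, and the acetylcholine receptor gene Chrna1 was at 91.6 CPM against 26.5 to 57.5 CPM. Sln (483 CPM) and Chrng (6.64 CPM) lay inside the range of the other 3, at 411 to 552 and 2.75 to 7.24 CPM. Nfix and Hif1an, whose means were lower at 60 than at 0 days, were also high in replicate 1. Nfix was at 48.8 CPM against 17.2 to 18.0, and Hif1an at 26.1 CPM against 8.49 to 10.7. The other 3 libraries at 60 days averaged 12.3 ± 0.833 CPM for Hdac4, 37.5 ± 0.785 for Mef2a and 918 ± 67.7 for Cdkn1a (SD, n = 3). The labels give nothing that sets this library apart.

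The lists of other genes below were tested in the same fit and are to be read against the shares and medians of all genes given above. The co-repressors and other deacetylases (8 genes tested) had 1 gene higher and 2 lower at 10 days, 3 and 3 at 30 days, and 2 and 3 at 60 days, with medians of -0.02, 0.11 and -0.07. With library totals the counts were 7 and 0, 6 and 1, and 6 and 0. Ncor1, a co-repressor scaffold that class IIa deacetylases bind, fell from 132 ± 11.8 CPM (SD, n = 4) to 107 ± 6.89 at 10 days, 81.7 ± 4.31 at 30 and 90.4 ± 7.37 at 60 days. With library totals its 10-day difference turned to 0.36. Hdac10, a cytoplasmic deacetylase, rose by 0.70 on the log2 scale at 30 and 0.82 at 60 days, and Hdac1, a class I nuclear deacetylase with a near-identical copy in the rat genome and so an uncertain count, rose by 0.63 and 0.48. At 60 days the Hdac1 libraries (13.8 to 27.2 CPM) overlapped those at 0 days (12.6 to 16.9 CPM).

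Of the 21 kinases, phosphatases and anchoring proteins that act on class IIa deacetylases, 5 rose and 9 fell at 10 days, 4 rose and 10 fell at 30 days, and 3 rose and 9 fell at 60 days. Their median log2 fold changes were -0.16, -0.32 and -0.21, and with library totals they turned to 0.50, 0.17 and 0.21, with 11 higher and 4 lower, 9 and 8, and 9 and 6. Camk2a, a calcium-activated kinase that phosphorylates HDAC4, fell from 80.5 ± 7.13 CPM to 20.8 ± 4.78 at 10 days, 23.5 ± 3.47 at 30 and 27.6 ± 4.27 at 60 days, which on the log2 scale is -1.95, -1.77 and -1.54, or -1.30, -1.29 and -1.14 with library totals. Camk2g, a related kinase, fell by 0.85, 1.76 and 1.79 on the log2 scale. Camk2b, another of these kinases, was higher at 10 days. It went from 512 ± 28.8 CPM at 0 days to 737 ± 74.7 at 10, 561 ± 65.6 at 30 and 376 ± 124 at 60 days. Camk2d was at 58.8 ± 5.84, 50.3 ± 2.90, 40.4 ± 3.47 and 41.6 ± 28.6 CPM in the same order. Prkaa2, the muscle catalytic subunit of AMP-activated kinase, fell from 64.7 ± 26.0 CPM to 22.7 ± 7.29 at 10 days, 16.6 ± 3.21 at 30 and 19.8 ± 7.93 at 60 days. Prkaa1, the other catalytic subunit, was instead higher, from 34.7 ± 2.56 CPM to 67.2 ± 4.17, 45.2 ± 4.81 and 46.0 ± 4.49 in that order. Sik1, a salt-inducible kinase that also phosphorylates these deacetylases, rose by 1.40 at 10 days and did not pass at 30 days (-0.32) or 60 days (0.29). Transcript levels do not show kinase activity or where the deacetylases are in the fibre.

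Between HDAC4 and myogenin, 6 genes of the Six2 and Eya families, whose proteins are partners of Dach proteins in controlling muscle genes, were tested. At 10 days 2 rose and 3 fell, at 30 days 1 rose and 2 fell, and at 60 days 0 rose and 4 fell, with medians of -0.16, -0.35 and -0.57. With library totals 3 rose and 0 fell at 10 days, 2 rose and 1 fell at 30 days, and 1 rose and 3 fell at 60 days. Six2, a homeobox factor, fell by 1.10, 1.41 and 1.77 on the log2 scale. Eya4, a co-activator of the homeobox factors of this group, rose by 0.57 at 10 days and fell by 1.08 at 60 days, and Eya2 fell by 0.85 at 10 days.

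Among 8 other MEF2 family members and partners, 4 rose and 3 fell at 10 days, 4 rose and 3 fell at 30 days, and 2 rose and 2 fell at 60 days, with medians of 0.21, 0.56 and 0.15. Myog, the gene of myogenin, rose from 23.8 ± 3.91 CPM to 485 ± 31.3 at 10 days, 411 ± 70.4 at 30 and 111 ± 20.4 at 60 days (log2 fold changes 4.35, 4.11 and 2.22). Myf5, a myogenic factor of muscle precursors, rose by 1.77, 1.77 and 1.14. Vgll2, a muscle co-activator of TEAD and MEF2 factors, fell by 1.93 at 10 days and 0.96 at 30 days. Tead1 fell by 1.08, 1.95 and 1.71.

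Of 15 muscle genes known to depend on MEF2, 2 rose and 12 fell at 10 days, 2 rose and 11 fell at 30 days, and 1 rose and 9 fell at 60 days. Their median log2 fold changes were -1.22, -0.75 and -0.46, and -0.57, -0.26 and -0.06 with library totals. Pgam2, a glycolytic enzyme of muscle, fell from 4694 ± 454 CPM to 534 ± 115 at 10 days, 2307 ± 864 at 30 and 3057 ± 390.0 at 60 days. Ckm, muscle creatine kinase, fell by 2.74, 1.28 and 0.81, and Pygm, muscle glycogen phosphorylase, by 2.60, 2.16 and 1.54. Myl2, a slow-fibre myosin light chain, fell by 2.56 at 10 days, and its differences at 30 days (0.19) and 60 days (0.58) did not pass. The summed muscle fibre markers given above fell with these genes, and their part in the result was not tested. Ckm and Des are in both lists.

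Of 13 myogenin targets and other denervation genes, 13 rose at 10 days, 11 rose and 1 fell at 30 days, and 10 rose and 1 fell at 60 days, with medians of 4.80, 3.67 and 1.29. This list, like the others, was chosen with earlier results of these data known, so its counts are a description only. The gene that fell at 30 and 60 days was Fbxo32. This ubiquitin ligase of muscle atrophy was at 50.7 ± 13.1 CPM at 0 days, 175 ± 27.4 at 10 days, 18.1 ± 3.21 at 30 and 17.7 ± 7.05 at 60 days. On the log2 scale the difference was 1.79 at 10 days, -1.48 at 30 and -1.51 at 60 days. Trim63, the other classical atrophy ligase, rose by 0.84 at 10 days and did not pass at 30 days (0.28) or 60 days (0.25). Chrna1, the alpha subunit of the acetylcholine receptor, rose by 6.01, 5.48 and 1.63. Chrng, the fetal gamma subunit, rose by 7.11, 7.58 and 2.54. Sln, sarcolipin, a regulator of the calcium pump, rose by 5.98, 6.47 and 5.83.

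**Figure D5:**
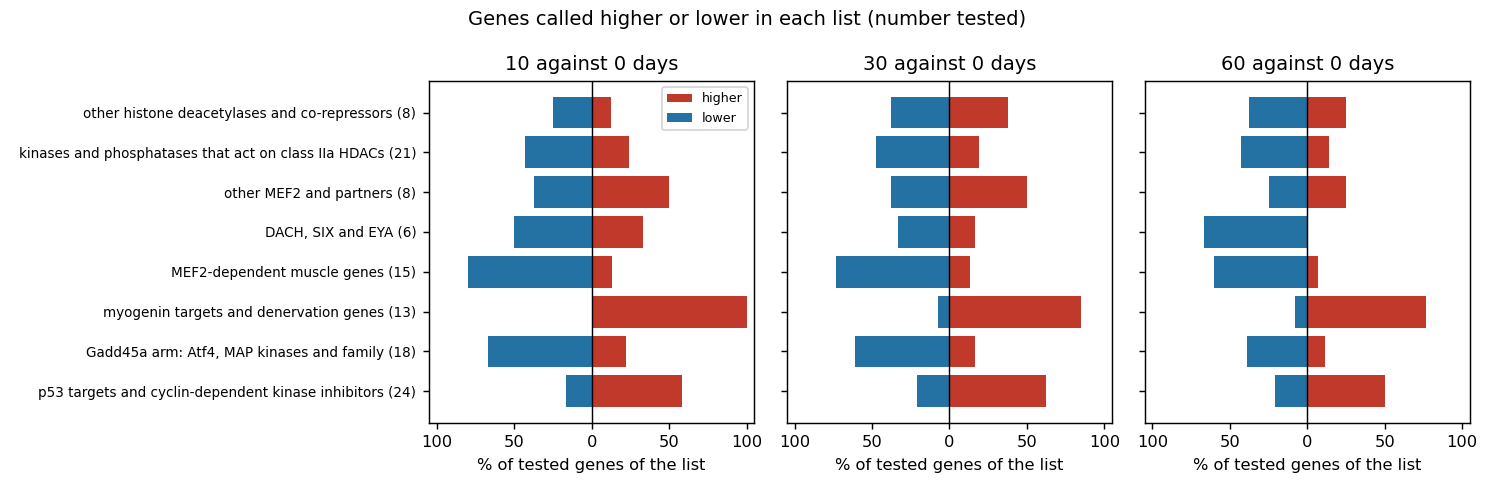
Share of the tested genes of each of the 8 pathway lists called higher (red, right) or lower (blue, left) at 10, 30 and 60 days against 0 days, with the number tested in brackets. The denervation genes reach 13 of 13 higher at 10 days, and the MEF2-dependent genes and the Gadd45a arm are mostly lower at 10 and 30 days. All lists were chosen with earlier results of these data known.

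Around Gadd45a, 18 genes of its family, its inducers and its MAP kinase partners were tested. At 10 days 4 rose and 12 fell, at 30 days 3 rose and 11 fell, and at 60 days 2 rose and 7 fell. Their median log2 fold changes were -0.83, -0.78 and -0.43. With library totals 5 rose and 6 fell at 10 days, 4 rose and 6 fell at 30 days, and 6 rose and 6 fell at 60 days. Atf4, the stress transcription factor known to induce Gadd45a, fell from 578 ± 35.1 CPM to 168 ± 14.2 at 10 days, 214 ± 22.5 at 30 and 299 ± 56.2 at 60 days, which on the log2 scale is -1.78, -1.44 and -0.95, or -1.12, -0.95 and -0.55 with library totals. The Atf4 transcript and Gadd45a moved in opposite directions at all 3 times. ATF4 is controlled largely at translation, which transcript levels do not show. Gadd45g, the family member known to respond to cytokines, fell from 85.5 ± 28.4 CPM to 9.32 ± 3.24 at 10 days (log2 fold change -3.19) and by 1.20 on the log2 scale at 30 days, and its 60-day difference of 0.55 did not pass. Map2k6, a kinase of the p38 pathway, fell by 2.88, 1.49 and 1.23. Fos, an immediate early gene, fell by 2.25 at 10 days, although its libraries overlapped, and did not pass at 30 days (-1.22) or 60 days (-0.88).

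Around Cdkn1a, 24 p53 targets, cyclins and cyclin-dependent kinase inhibitors were tested. At 10 days 14 rose and 4 fell, at 30 days 15 rose and 5 fell, and at 60 days 12 rose and 5 fell, with medians of 0.41, 0.71 and 0.47. With library totals 21 rose and 2 fell at 10 days, 21 rose and 2 fell at 30 days, and 18 rose and 2 fell at 60 days. Rb1, the retinoblastoma protein that p21 keeps active, rose from 72.7 ± 1.16 CPM to 282 ± 28.7 at 10 days, 139.5 ± 23.8 at 30 and 99.5 ± 20.2 at 60 days. Cdkn1c, the inhibitor p57, did not pass at 10 days (0.21) and rose by 2.46 at 30 and 4.01 at 60 days. Cdkn2b, the inhibitor p15, rose by 3.24, 3.19 and 1.52. Cdkn2a had only 3 to 4 fragments per library at 0 days, against 7 to 30 at 10 days, 21 to 53 at 30 and 6 to 21 at 60 days, so no fold is given. Of 8 dividing-cell markers, of which Pcna, Cdk1 and Ccnb1 are also among the 24 genes, 1 rose and 1 fell at 10 days, 5 rose and 0 fell at 30 days, and 2 rose and 0 fell at 60 days. Their sum ran from 39.9 to 45.9 CPM at 0 days and from 55.7 to 57.3 at 10 days, and most of it was Pcna, at 30.1 ± 2.06 and 45.9 ± 4.07 CPM, while Bub1 fell from 6.85 ± 0.472 to 3.01 ± 0.436 CPM. The sum ran from 56.0 to 58.7 CPM at 30 days and from 41.3 to 58.0 at 60 days. Macrophage markers (8 genes) summed to 24.0 to 47.0, 81.4 to 108, 124 to 152 and 101 to 179 CPM at the 4 times in order. Their part in the changes of Gadd45a and Cdkn1a was not tested.

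The genes whose levels most resembled each member over the 16 libraries were found by Pearson correlation of log2 CPM, given as a description, since all libraries of a group share their time and injury. For Hdac4 they were Slc25a16 (r = 0.981), Rb1 (0.978) and Ksr1 (0.977). For Hdac5 they were Cacna1h (0.957), Vwa7 (0.945) and Ptov1 (0.944), and for Hdac9 Ppp2r3a (0.951), Naa40 (0.934) and Fhod3 (0.905). For Mef2a they were Pard3 (0.981), Lrba (0.980) and Hspa4 (0.980), and for Mef2d Nfix (0.974), Hif1an (0.967) and Opa3 (0.966). For Gadd45a they were Eef1a1 (0.990), Myog (0.990) and Adck4 (0.988), where Eef1a1 is uncertain because it has near-identical copies in the genome. For Cdkn1a they were Ankrd1 (0.987), Fst (0.986) and Sln (0.984).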

How the data were processed

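RNA from rat supraspinatus muscle was sequenced in 16 libraries, 4 per group, grouped by the time in each label. The authors deposited 1 table of raw fragments per gene, whose values are expected counts, not scaled for depth or gene length. Tools named in the submitters' processing notes are bcl2fastq 1.8.4, FastQC, TopHat2 2.0.9, Bowtie2 2.1.0.0, Cufflinks and Cuffdiff 2.1.1, with the genome build rn5. Strandedness is not given in the sources used here, so fragments of genes that overlap on opposite strands cannot be told apart. Of 17147 genes, 233 had a fractional value, none of them a member, and values were rounded to whole counts.

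From these counts, 11658 genes that passed filterByExpr were fitted in 1 edgeR quasi-likelihood model (TMM factors, robust estimation, no covariate). Adjusted p-values are Benjamini-Hochberg values over all tested genes, and a gene was called at an adjusted p under 0.05. A floor of 3 counts corresponded to 0.0752 to 0.175 CPM per library and covers counting error only. The common biological coefficient of variation was 0.150. On simulated data for 10 against 0 days, 152 of 200 genes changed 2-fold were called, with 7 unchanged genes called among 11509 tested, and a comparison with no change gave 1 call.

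The members and the gene lists were chosen with earlier results of these data known. Besides the members, the genes named are, in each list, up to 4 with the largest log2 fold change against 0 days among those called, plus Myog, Chrna1, Fbxo32, Trim63 and Atf4, and for each member the 3 tested genes of most similar pattern with a mean of at least 5 CPM (log2 CPM with a prior count of 2). Ankrd1, Nfix and Hif1an are among the latter. The values of genes other than members given for replicate 1 at 60 days were chosen after they were seen. Camk2b, Camk2d and Prkaa1 are outside this rule and were added after their values were seen, as relatives of genes it picks. A few genes that this rule picks are not reported here. The alternatives tried were scaling by library totals, RLE or upper-quartile factors, DESeq2, other filters for low counts, models without robust estimation or with only the 2 groups compared, a replicate block, the letter ending each title as a covariate, an adjusted p under 0.01 and leaving out each library. Counts for the gene lists under these settings were added after seeing the data. No gene list was given a set test. Promoter windows came from the RefSeq table of GRCr8. Software was R 4.3.3, edgeR 4.0.16, DESeq2 1.42.0, python 3.11.15 and matplotlib 3.10.9.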

Additional observations from a re-analysis of the deposited data

Results flagged for a closer look

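In 28 groups of 4 libraries (7 genes at 4 times), 3 had a library far from the others, all of them replicate 1 at 60 days. It held 24.8 CPM of Hdac4, 74.0 CPM of Mef2a and 2199 CPM of Cdkn1a, and its gap to the nearest library took 0.884, 0.959 and 0.9 of the group's whole range. Chance marks about 1 in 20 groups in this way, and these 3 come from 1 library. The chi-square statistic per gene between this library and the others at 60 days was 65.3 to 78.0, against 13.5 to 23.9 among the other 3. Values within the 30-day group ran from 31.1 to 108, so the 60-day values are not the highest of the series.

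The difference from 0 days itself differed between times for 6 of the 7 members, by the test between the operated groups in the same edgeR fit. These are the comparisons between operated groups given above, and such calls were common. Over all tested genes, 23.0% were higher and 24.3% lower at 30 against 10 days. The shares were 10.3% and 12.4% at 60 against 30 days, and 29.1% and 31.9% at 60 against 10 days. For Hdac4 the log2 difference between the effects was -1.79 at 30 against 10 days, -0.86 at 60 against 30 days and -2.65 at 60 against 10 days. For Hdac5 it was 0.76 at 60 against 30 days and 1.01 at 60 against 10 days, and for Hdac9 0.57 at 60 against 10 days. For Mef2a it was -1.08 at 30 against 10 days and -1.60 at 60 against 10 days, and for Mef2d -0.58 and -0.60. For Gadd45a it was -2.29 at 60 against 30 days and -2.58 at 60 against 10 days. With TMM factors Cdkn1a showed no such difference with all libraries and did without replicate 1 at 60 days, and with library totals it fell by 0.72 from 10 to 60 days with all libraries (adjusted p 0.0225).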

How the results depend on the processing

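The 42 differences of single members kept direction and side of the threshold in 31 (library totals) to 42 (no robust estimation) cases per setting, and in 301 of 336 fits that left out 1 library. At 60 against 0 days 3 members in place of 6 passed an adjusted p under 0.01. The share of all genes that passed this stricter threshold is not given here, so that count has no background. Leaving out 1 library gave 3 to 5 called members at 30 against 10 days, 3 to 5 at 60 against 30 days and 4 to 6 at 60 against 0 days. Calls over all genes moved in these fits too. They ran from 4768 to 5309, from 1764 to 3381 and from 6051 to 7152 in the same order. With all libraries they were 5513, 2636 and 6880. These differences changed sign, all in values that did not pass with TMM factors except that of Hdac5: with library totals, Hdac5 (0.015) and Mef2a (0.40) at 30 against 0 days, Mef2d (0.32) at 10 against 0 days and Cdkn1a (-0.15) at 30 against 10 days; with upper-quartile factors, Mef2a at 30 against 0 days (0.023) and Hdac9 at 30 against 10 days (0.0085). Mef2d at 60 against 30 days was 0.0032 with RLE factors, 0.0033 with DESeq2 and 0.027 with the title letter. Cdkn1a at 30 against 10 days was -0.011 with no filter, -0.0073 with the 2 groups alone and -0.0045 with the replicate block. Leaving out 1 library gave -0.20 to 0.18 for Hdac9 and -0.077 to 0.079 for Cdkn1a at 30 against 10 days, -0.19 to 0.0043 for Mef2a at 30 against 0 days and -0.19 to 0.10 for Mef2d at 60 against 30 days. The cause was not tested. Same-numbered libraries had a mean correlation of 0.0013, with single values from -0.24 to 0.22. This gives no sign of pairing by number but cannot exclude it in groups this small. With the replicate block Mef2d at 10 against 0 days passed (-0.34, adjusted p 0.0197) and no other call changed. Over all genes, 2636 were called at 60 against 30 days, but 1530 with the 2 groups alone. Of 24 list counts of higher and lower genes combined, 22 with library totals and 23 with the 2 groups alone were within 1.5 times the main count, although library totals moved genes from lower to higher. The totals at 60 days were the lowest, so depth and that group cannot be told apart.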
